A study of Mus musculus with 4 samples.

Results

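The genes described here are the coactivators YAP (Yap1) and TAZ (Wwtr1), the DNA-binding TEAD factors they work through (Tead1, Tead2, Tead3 and Tead4) and 4 widely used target genes (Ccn1, also called Cyr61, Ccn2, also called Ctgf, Ankrd1 and Amotl2). They were taken by symbol from the deposited table of counts per gene, and all 10 were found among its 28440 rows. The table holds 4 mammary gland tumours, numbered 1 to 4, of mice with the genotype MMTV-R26Met, which carry extra Met from the Rosa26 locus once a recombinase under the MMTV promoter, active mainly in mammary epithelium, has acted. The tumours form 1 group with no normal, untreated or control tissue, and neither age, strain and sex nor whether the tumours came from separate mice are given in the sources used here. The design therefore asks at what level the genes are expressed and how far single tumours differ, and p-values describe the spread between these 4 samples only.

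The Hippo pathway is a kinase cascade that restrains YAP and TAZ. When the kinases are active, both coactivators are phosphorylated, kept in the cytoplasm and degraded; when they are inactive, as in stretched, sparse or wounded epithelium, the coactivators enter the nucleus and bind TEAD factors, which cannot activate transcription well on their own. In the mammary gland the pathway is known for its part in progenitor states and in tumour growth, and TAZ in particular has been tied to basal-like breast cancer. Activity is set largely by the location of the proteins, so that RNA levels of Yap1, Wwtr1 and the TEAD genes measure supply, whereas target genes are the usual RNA readout.

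Libraries held 35220504 to 42809015 counts. The epithelial markers Epcam, Krt8, Krt18, Cdh1 and Cldn7 were present in every tumour (summed 2390 to 3663 CPM, the count scaled to library size, with libraries set to each other by TMM), as was Met (1795 to 3745 CPM). Markers of other cells were present too, with 7 fibroblast genes summing to 2793 to 4017 CPM, 6 endothelial genes to 151 to 199 CPM and 5 leukocyte genes to 176 to 236 CPM. Tumour 3 stood apart in 5 skeletal muscle genes (883 CPM, against 0.999 to 1.39 CPM in the others) and tumour 4 in basal genes such as Krt5, Krt14 and Trp63 (7 basal and myoepithelial genes summed to 345 CPM, against 93.8 to 157 CPM, with 5 of the 7 highest there), whereas the contractile genes Acta2 and Cnn1 of the same list were highest in tumours 3 and 2 and Acta2 was lowest in tumour 4. In bulk tissue, fewer cells of a type and less RNA per cell cannot be told apart.

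TEAD factors recognise a short DNA element known as MCAT, read here as GGAATG or, on the other strand, CATTCC. These letters were searched in the 250 bases before annotated starts (RefSeq, GRCm38.p6) of the 7 members with a promoter window, in 10 windows. A start used need not be the outermost end of the gene. Of these 7 genes, 6 held the element (Yap1, Wwtr1, Tead3, Ccn1, Ankrd1 and Amotl2) and Tead2 did not; the share among all genes with a window was 14.4%, and among all 32851 windows 12.6%. The following 3 target promoters and 2 coactivator promoters are printed because they show the element in genes of both kinds. Each runs 5′ to 3′ on the gene's own strand and ends at the base before the start used, with the element in capitals. The Amotl2 window lies wholly inside the span of its gene (102717091 to 102733418). The Yap1 window begins at 8004597 and so overlaps its gene, which ends at 8004638.

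Ccn1, chr3:145649986-145650235, minus strand: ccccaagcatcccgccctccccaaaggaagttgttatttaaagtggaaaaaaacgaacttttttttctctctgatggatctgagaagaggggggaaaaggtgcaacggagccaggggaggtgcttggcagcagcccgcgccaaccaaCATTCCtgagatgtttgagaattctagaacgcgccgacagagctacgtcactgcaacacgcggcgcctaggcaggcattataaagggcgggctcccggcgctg

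Ankrd1, chr19:36119845-36120094, minus strand: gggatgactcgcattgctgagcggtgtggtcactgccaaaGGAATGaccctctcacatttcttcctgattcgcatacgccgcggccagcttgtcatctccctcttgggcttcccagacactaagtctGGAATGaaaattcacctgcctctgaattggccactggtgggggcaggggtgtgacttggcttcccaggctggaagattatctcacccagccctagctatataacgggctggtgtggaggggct

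Amotl2, chr9:102717554-102717803, plus strand: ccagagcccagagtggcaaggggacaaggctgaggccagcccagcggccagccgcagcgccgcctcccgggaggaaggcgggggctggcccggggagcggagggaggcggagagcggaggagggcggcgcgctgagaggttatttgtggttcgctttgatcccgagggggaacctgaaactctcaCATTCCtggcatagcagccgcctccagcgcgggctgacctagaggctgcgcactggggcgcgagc

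Yap1, chr9:8004597-8004846, minus strand: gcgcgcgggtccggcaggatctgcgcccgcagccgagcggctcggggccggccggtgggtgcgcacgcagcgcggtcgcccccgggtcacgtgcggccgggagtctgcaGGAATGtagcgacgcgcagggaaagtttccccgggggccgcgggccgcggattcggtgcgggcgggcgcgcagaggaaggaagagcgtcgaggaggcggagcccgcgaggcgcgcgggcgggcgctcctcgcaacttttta

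Wwtr1, chr3:57575911-57576160, minus strand: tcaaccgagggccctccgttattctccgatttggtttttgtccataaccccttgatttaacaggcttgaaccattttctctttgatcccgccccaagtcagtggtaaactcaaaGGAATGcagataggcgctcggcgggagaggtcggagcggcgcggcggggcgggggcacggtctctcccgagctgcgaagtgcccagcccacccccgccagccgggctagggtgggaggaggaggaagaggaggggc

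Ankrd1 carried the element at 2 places, beginning 210 and 123 bases before the start, both in the orientation of the gene. In Ccn1 and Amotl2 it lay once, on the other strand, beginning 103 and 65 bases before the start used, which for Amotl2 is inside the gene. Yap1 and Wwtr1 each held it once, in the orientation of the gene, at 141 and 136 bases, and 2 of the 3 Tead3 windows held it as well. The AP-1 element TGANTCA, bound by FOS and JUN factors that often act beside TEAD factors, was in none of the 10 windows (6.7% of all windows hold it, both strands searched). Such matches describe letters in these windows only and say nothing of binding in the tumours.

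Yap1 was expressed at nearly the same level in every tumour, and Wwtr1 was somewhat higher in tumours 3 and 4. Yap1 (Entrez gene 22601, chromosome 9, 7931999 to 8004638, GRCm38), the coactivator YAP, had 114, 125, 99.6 and 106 CPM in tumours 1 to 4 (111 ± 10.8, mean ± SD, n = 4). Its highest tumour stood 1.25-fold above its lowest, and its SD of log2 CPM (0.14) lay at percentile 8.4 of the genes tested. Wwtr1 (Entrez gene 97064, chromosome 3, 57455644 to 57575910), which encodes the paralogue TAZ, had 119, 123, 187 and 165 CPM (149 ± 33.1, mean ± SD, n = 4). Tumours 3 and 4 were thus above tumours 1 and 2 for Wwtr1, by at most 1.57-fold, while Yap1 was lowest in tumour 3. Neither gene passed the test for varying more between tumours than genes of like expression (edgeR adjusted p = 1 for both, unadjusted 0.968 and 0.721).

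To compare the coactivators with each other, CPM were divided by the length of the longest annotated coding transcript in kilobases. Wwtr1 then had 31.6 ± 7.04 and Yap1 26.6 ± 2.59 CPM per kilobase (SD, n = 4). The log2 ratio of Wwtr1 to Yap1 was -0.11, -0.19, 0.74 and 0.47 in tumours 1 to 4, a mean of 0.23 with an SD of 0.45, so the order was kept in 2 of 4 tumours only and did not exceed the spread. With the union of all annotated exons as length, which is much longer for Yap1, the ratio was 0.94 to 1.86 with Wwtr1 higher in 4 of 4 tumours. Counts per gene do not give which transcripts were expressed, so the level of one coactivator relative to the other is not settled. The change of the ratio between tumours is the same with either length, and it was highest in tumour 3.

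**Figure D1:**
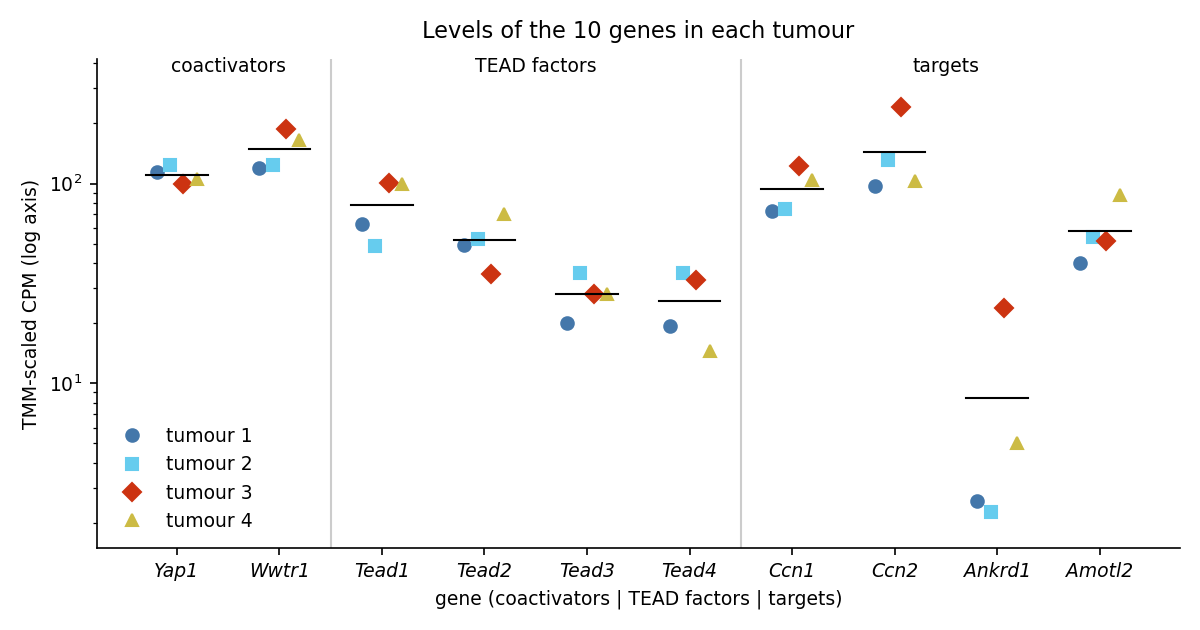
TMM-scaled CPM (log axis) of the 10 genes in tumours 1 to 4 (symbols), with the mean over tumours as a black line. Ankrd1 in tumour 3 (23.9 CPM) lies far above its other 3 values (2.28 to 5.04 CPM), whereas the values of Yap1 lie within 1.25-fold.

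All 4 TEAD genes, which encode paralogous factors that share the TEA DNA-binding domain, were expressed in every tumour. Tead1 (chromosome 7, 112679356 to 112906784) had 62.5, 48.6, 101 and 99.0 CPM in tumours 1 to 4. Tead2 (chromosome 7, 45215792 to 45233468) had 49.0, 53.1, 35.3 and 70.8 CPM. These 2 genes differed in which tumours were high: Tead1 was high in tumours 3 and 4, while Tead2 was highest in tumour 4 and lowest in tumour 3. Tead3 (chromosome 17, 28331671 to 28350805) had 20.1, 35.5, 27.9 and 28.0 CPM. Tead4 (chromosome 6, 128227143 to 128300813), known for its role in the trophectoderm, had 19.4, 35.8, 32.9 and 14.6 CPM. Tead3 and Tead4 were both highest in tumour 2, but Tead3 was lowest in tumour 1 and Tead4 in tumour 4. Highest and lowest tumours were 2.08-fold apart for Tead1, 2.01-fold for Tead2, 1.77-fold for Tead3 and 2.46-fold for Tead4. For the sum of the 4 genes (183 ± 27.0 CPM, SD, n = 4) they were 1.41-fold apart. A sum of genes that differ in their highest and lowest tumours varies less by arithmetic, so the smaller fold is no result about the family. None of the 4 passed the test for spread by edgeR (adjusted p = 1 for each), 0 of 4 had an unadjusted p under 0.05, and DESeq2 marked 0 of 4 as dispersion outliers. Over all 15808 genes tested, 574 passed, 1381 had an unadjusted p under 0.05 and DESeq2 marked 91.

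Per kilobase, Tead2 was on average the most highly expressed of the family, with 15.3 ± 4.31 CPM per kilobase. Tead3 (10.1 ± 2.27), Tead4 (8.35 ± 3.34) and Tead1 (7.81 ± 2.64) followed (SD, n = 4 for each). In tumour 3 Tead4 was slightly above Tead2 (10.7 against 10.4 CPM per kilobase). Tead2 was above Tead3 in 4 of 4 tumours, with a mean log2 difference of 0.59 ± 0.50 (SD). The neighbours further down the order did not differ beyond their spread (0.33 ± 0.52 from Tead3 to Tead4 and 0.07 ± 0.95 from Tead4 to Tead1 on the log2 scale). As shares of the summed level per kilobase, Tead2 held 42.1, 34.8, 25.2 and 45.7% in tumours 1 to 4, and Tead4 held 18.4, 25.9, 25.9 and 10.4%. In tumour 3 the 4 genes were close to equal, at 24.4 to 25.9%, whereas in tumour 4 they ran from 10.4% (Tead4) to 45.7% (Tead2). The near equality in tumour 3 depended on the length used. With union exon lengths the shares there ran from 14.8% (Tead3) to 32.5% (Tead4), and in tumour 4 from 13.4% (Tead4) to 48.8% (Tead2). With union exon lengths Tead2 stayed first on average (39.0%), ahead of Tead4 (25.6%), Tead1 (20.6%) and Tead3 (14.8%), so the order of the other 3 depends on the length used. The lead of Tead2 over Tead4 was then within the spread (log2 difference 0.66 ± 0.95, SD, kept in 3 of 4 tumours). Without any correction for length Tead1, whose transcript is the longest of the 4 at 9.96 kilobases, held the most counts (41.8%).

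**Figure D2:**
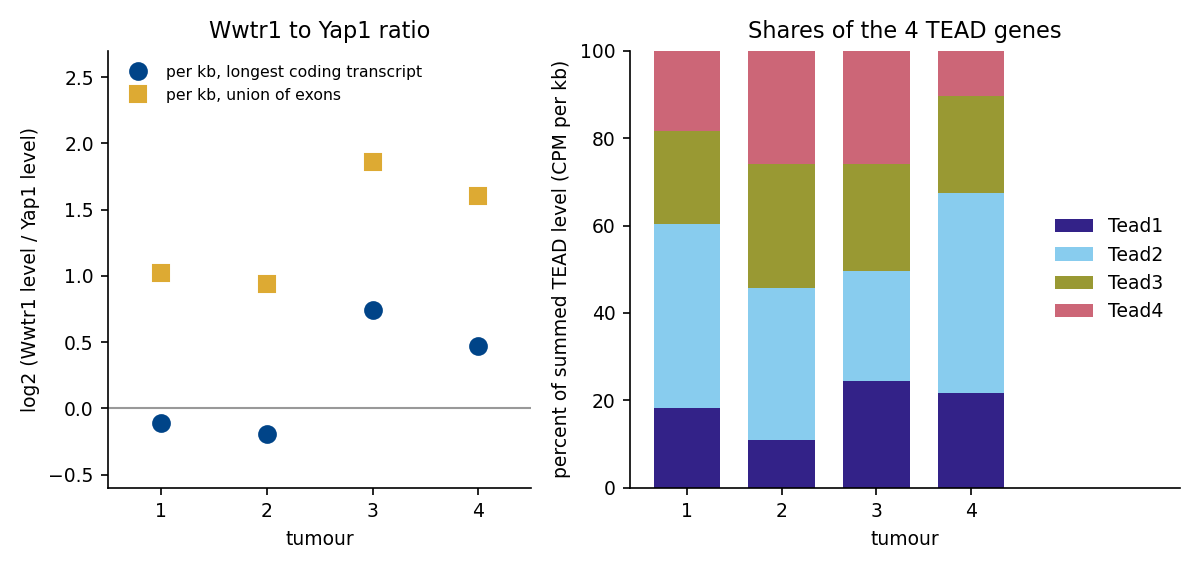
Left, log2 ratio of the Wwtr1 to the Yap1 level per kilobase in each tumour, with the length of the longest coding transcript (circles) or of the union of exons (squares); right, percent of the summed TEAD level per kilobase held by each TEAD gene. The ratio is highest in tumour 3 (0.74 and 1.86), and Tead4 holds its smallest share in tumour 4 (10.4%).

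Among the target genes Ccn1, Ccn2 and Ankrd1 were highest in tumour 3 and Amotl2 in tumour 4. Ccn1 (chromosome 3, 145646971 to 145649985) and Ccn2 (chromosome 10, 24595442 to 24598683) encode secreted matricellular proteins of the CCN family that bind integrins and are the targets most often measured for YAP and TAZ activity. Ccn1 had 72.9, 74.7, 123 and 104 CPM in tumours 1 to 4 (93.6 ± 24.1, mean ± SD, n = 4). Ccn2 had 97.8, 131, 241 and 103 CPM (143 ± 66.9, mean ± SD, n = 4). For Ccn2 only tumour 3 stood clearly higher, 1.83-fold above tumour 2, while for Ccn1 tumour 4 was above tumours 1 and 2 as well. Neither passed the test (edgeR adjusted p = 1, unadjusted 0.618 for Ccn1 and 0.169 for Ccn2). Per kilobase both were abundant, with Ccn2 at 57.6 ± 26.9 and Ccn1 at 46.4 ± 11.9 CPM per kilobase (SD, n = 4), above 93.1% and 90.8% of 13457 tested genes with a length. Their order was kept in 3 of 4 tumours, with a mean log2 difference of 0.25 ± 0.44 (SD), within the spread.

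Amotl2 (chromosome 9, 102717091 to 102733418) encodes an angiomotin, a junction protein that binds YAP and holds it in the cytoplasm and so acts as a feedback inhibitor. Its levels were 40.1, 53.9, 51.4 and 87.4 CPM in tumours 1 to 4 (58.2 ± 20.4, mean ± SD, n = 4). Tumour 4 was 2.18-fold above tumour 1, and tumour 3 did not stand out as it did for the CCN genes (edgeR adjusted p = 1, unadjusted 0.403). Amotl2, at 13.4 ± 4.71 CPM per kilobase, was below Ccn1 in 4 of 4 tumours with either length. It was above Ankrd1 in 4 of 4 tumours, by 11.9 against 11.8 CPM per kilobase in tumour 3, and with union exon lengths in 3 of 4.

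Ankrd1 was the one gene of the 10 that passed the test for varying more between tumours than genes of like expression. It encodes a muscle ankyrin repeat protein, also called CARP, that sits in the sarcomere and nucleus of muscle cells and is induced by YAP in other cells. Ankrd1 (chromosome 19, 36111965 to 36119844) had 110, 79, 917 and 207 counts in tumours 1 to 4, or 2.59, 2.28, 23.9 and 5.04 CPM. Tumour 3 was 10.5-fold above tumour 2 and 4.74-fold above tumour 4, the next highest, and counting error is small beside this (95% exact Poisson interval of 22.4 to 25.5 CPM in tumour 3 and 4.38 to 5.78 CPM in tumour 4). The gene passed the test with an edgeR adjusted p of 0.0386 (unadjusted 0.00132). The count of members that passed was therefore 1 of 10, beside 3.63% of all 15808 genes tested (574 genes). The call rests on tumour 3: without it Ankrd1 had an edgeR adjusted p of 1. The call was also lost without tumour 1 (edgeR adjusted p = 0.0859), without tumour 2 (0.18), with no count filter (0.103) and with a minimum mean of 5 CPM (0.108). Without tumour 4 the edgeR adjusted p was 0.00982. DESeq2 marked 0 of 10 members as dispersion outliers, beside 91 of all 15808 genes tested. A planned rule for single outlying tumours took the gap to the nearest tumour as a part of the range of log2 CPM. It flagged 0 of 15 items (the members, the Wwtr1 to Yap1 ratio and the TEAD shares). For tumour 3 the gap ratio was 0.66 in Ankrd1 and 0.67 in Ccn2, both short of the critical value.

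Like Ankrd1, the skeletal muscle genes were highest in tumour 3, and in the other tumours they were near 0. Acta1, which encodes skeletal muscle actin, reached 343 CPM in tumour 3, against 0.219 to 0.376 CPM in tumours 1, 2 and 4. Myh4, a fast myosin heavy chain, reached 334 CPM against 0.0288 to 0.282 CPM. Ckm (muscle creatine kinase), Tnnt3 (a fast troponin T) and Mylpf (a fast myosin light chain) followed, at 87.0, 75.1 and 44.0 CPM in tumour 3 and at most 0.635 CPM elsewhere, so that 5 of 5 skeletal muscle markers were highest in tumour 3. Mylpf passed the test (edgeR adjusted p = 1.64e-12), and the other 4, left out by the count filter, passed where no filter was set (edgeR adjusted p from 2.2e-55 to 5.79e-25). Desmin (Des), held here in the pericyte list but also a muscle intermediate filament, reached 124 CPM in tumour 3, above 4.49 to 6.81 CPM elsewhere (edgeR adjusted p = 3.77e-12). The related muscle ankyrin repeat genes Ankrd23 and Ankrd2, looked up after the values of Ankrd1 were seen, were highest in tumour 3 too, at 75.6 CPM for Ankrd23 (5.97 to 8.16 CPM elsewhere) and 3.73 CPM for Ankrd2 (0.0974 to 0.282 CPM elsewhere). The part of muscle RNA in the Ankrd1 value of tumour 3 was not tested. In tumours 1, 2 and 4, where the 5 muscle markers summed to at most 1.39 CPM, Ankrd1 had 2.28 to 5.04 CPM.

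**Figure D3:**
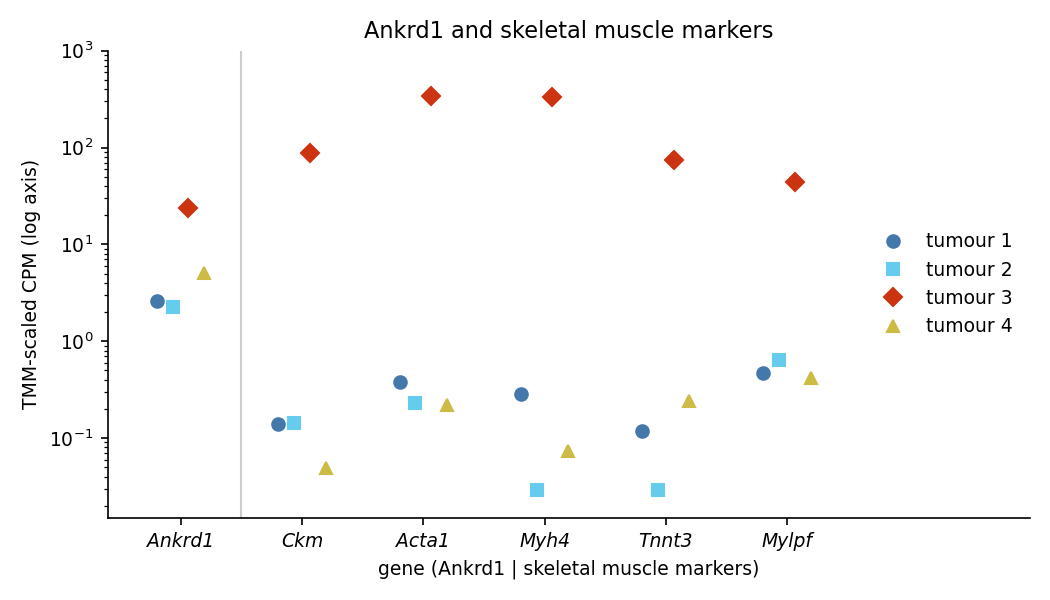
TMM-scaled CPM (log axis) of Ankrd1 and the 5 skeletal muscle markers in tumours 1 to 4 (symbols). Tumour 3 is highest for each gene, at 23.9 CPM for Ankrd1 and 44.0 to 343 CPM for the markers.

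Some markers of other cells that could carry these targets were highest in tumour 3 as well, beside 29.7% of all genes tested, and others were not. Their part in the target levels was not tested. The 7 fibroblast genes, most of whose sum comes from the collagens Col1a1, Col1a2 and Col3a1, summed to 2793, 3467, 3773 and 4017 CPM in tumours 1 to 4. Of these, 2 were highest in tumour 3, Col3a1 (1179 CPM) and Pdgfra (27.6 CPM). Another 3, Col1a1, Col1a2 and Lum, were highest in tumour 4, and 2 were highest in tumour 2. Lum was lowest in tumour 3 (4.275 CPM). The 6 endothelial genes summed to 199, 154, 176 and 151 CPM, and 3 of them, Kdr (44.5 CPM), Tek (8.84 CPM) and Emcn (18.8 CPM), were highest in tumour 3, against 2 in tumour 1. The remaining gene, Vwf, was highest in tumour 4 (56.9 CPM) and lowest in tumour 3 (26.6 CPM). The 5 pericyte genes summed to 293, 247, 359 and 219 CPM, and 3 of them, Des, Cspg4 (45.4 CPM) and Notch3 (35.1 CPM), were highest in tumour 3. The other 2, Rgs5 and Pdgfrb, were highest in tumour 1 (138 and 91.0 CPM), and Rgs5 was lowest in tumour 3 (65.2 CPM). Des, also a muscle gene, gave 124 CPM of the sum in tumour 3, against 4.49 to 6.81 CPM elsewhere. Of these genes, Des was the only one past the test for spread. Of 4 adipocyte genes, Fabp4, which endothelial cells and macrophages express too, was highest in tumour 3 at 90.9 CPM (7.92 to 25.8 CPM elsewhere, edgeR adjusted p = 0.000671), whereas Adipoq, Plin1 and Cidec were near 0 there (0.183, 0.0782 and 0.0521 CPM) and highest in tumour 2. Of 10 immediate early genes, which mark recent stimulation or handling and include partners of TEAD factors at their targets, 9 were tested. Of these 9, 0 passed by edgeR, beside 3.63% of all genes tested. An unadjusted p under 0.05 was found for 2 (Fos and Egr1) and DESeq2 marked 0, beside 1381 and 91 of all 15808 genes tested. Fos had 24.8, 70.7, 35.9 and 82.4 CPM and Egr1 54.1, 37.3, 24.8 and 90.8 CPM in tumours 1 to 4. The 9 tested genes were highest in tumours 1 to 4 in 2, 2, 1 and 4 cases, the gene highest in tumour 3 being Ier3 (171, 97.8, 174 and 104 CPM), and the part of recent stimulation or handling in the target levels was not tested.

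Read together, the 10 genes took their highest value in tumour 3 in 5 cases (Wwtr1, Tead1, Ccn1, Ccn2 and Ankrd1), in tumour 2 in 3 cases and in tumour 4 in 2, and in none in tumour 1, which was lowest for 5 of them. Over all genes tested, tumours 1 to 4 were highest for 22.9, 18.9, 29.7 and 28.5% of genes and lowest for 24.8, 19.7, 27.7 and 27.8%. Tumour 1 was also lowest for 5 of 5 epithelial markers, 4 of 7 fibroblast genes and 1 of 6 endothelial genes. The part of cell content in the placing of the members was not tested. The highest and lowest tumour of every member was the same when libraries were scaled by TMM, by RLE or by library size alone. The highest tumour exceeded the lowest by a median of 2.04-fold over the 10 members and 1.73-fold over all genes tested, and without Ankrd1 the members ran from 1.25 to 2.47. At such sizes the test has little reach, since on simulated counts with these library sizes it found 0 of 197 genes raised 2-fold in 1 library and 26.5% of 49 genes raised 4-fold. A p that misses the threshold therefore does not show that these 9 genes were level between tumours.

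**Figure D4:**
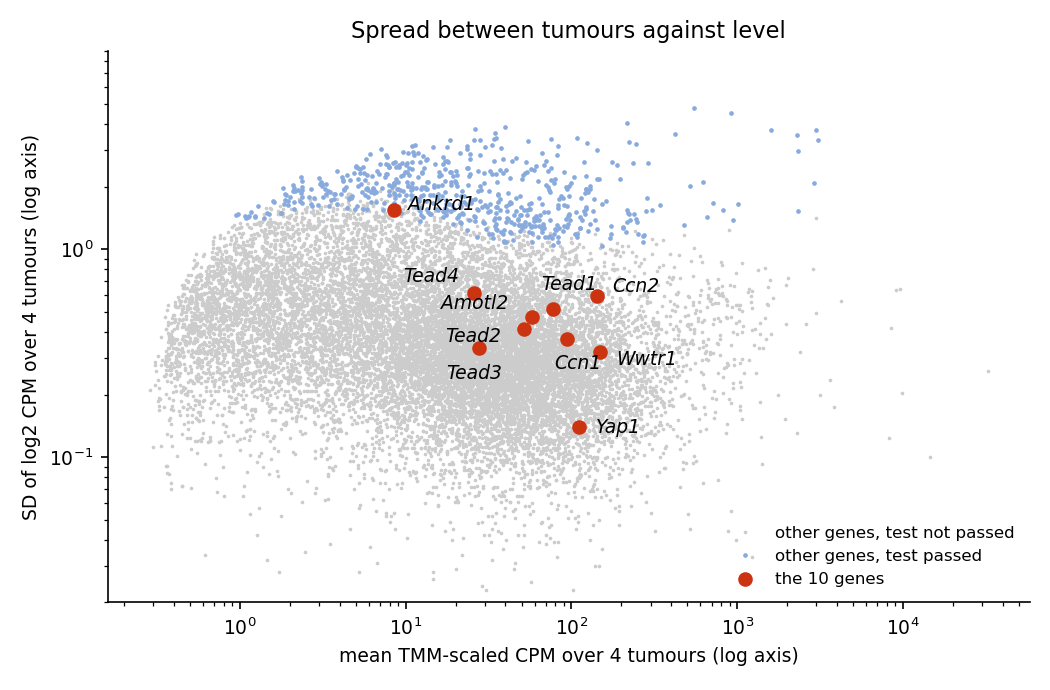
SD of log2 CPM over the 4 tumours (log axis) against mean TMM-scaled CPM (log axis) for all 15808 genes tested, with the 10 genes in red and other genes past the test in blue. Ankrd1 (the highest of the 10) lies at the lower edge of the genes that passed, and the other 9 lie within the grey cloud, Yap1 lowest at 0.14.

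On the kinase side of the pathway no gene passed the test for spread. Of 17 genes of the kinase core and its scaffolds, 0 passed by edgeR, beside 3.63% of all genes tested. None had an unadjusted p under 0.05 and DESeq2 marked 0, beside 1381 and 91 of all 15808 genes tested. Their median fold between lowest and highest tumour was 1.58, beside 1.73 over all genes. The most abundant was Taok1, an upstream kinase, at 368.7, 359.9, 408 and 339 CPM in tumours 1 to 4. The kinases Stk4 (MST1) and Lats1 ran from 89.7 to 109 CPM and from 109 to 153 CPM, and Taok3 had the largest spread, from 10.4 to 23.0 CPM (2.21-fold), followed by Stk3 (MST2) with 31.4 to 63.2 CPM (2.01-fold). Lats2, a kinase that is itself a target of YAP, had 29.0, 32.1, 33.1 and 51.7 CPM and, like Amotl2, was highest in tumour 4.

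Of 15 cofactors and inhibitors that bind YAP, TAZ or TEAD proteins or mark them for decay, 13 were tested. Of these 13, 0 passed by edgeR, beside 3.63% of all genes tested. An unadjusted p under 0.05 was found for 2 and DESeq2 marked 0, beside 1381 and 91 of all 15808 genes tested. Ywhaz, which holds phosphorylated YAP in the cytoplasm, was the most abundant at 589 to 654 CPM. Vgll4, which competes with YAP for TEAD factors, had 148, 195, 158 and 173 CPM, and the angiomotin Amotl1 had 171, 239, 268 and 256 CPM. The 2 genes with an unadjusted p under 0.05 encode LIM proteins that inhibit LATS kinases: Ajuba reached 40.7 CPM in tumour 4, against 9.69 to 11.4 CPM elsewhere (edgeR adjusted p = 0.385), and Wtip 29.6 CPM in tumour 1, against 4.59 to 11.9 CPM elsewhere (edgeR adjusted p = 0.451). Vgll1, a TEAD partner too scarce for the count filter, had 2.34 CPM in tumour 4, 0.130 CPM in tumour 3 and 0 counts in tumours 1 and 2, and passed where no filter was set (edgeR adjusted p = 0.000544). Tumour 4 was also the tumour with the highest basal keratin levels, and the part of that in the Vgll1 value was not tested.

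Junction and polarity genes, which feed into the kinases, gave 0 of 11 past the test by edgeR, beside 3.63% of all genes tested. None had an unadjusted p under 0.05 and DESeq2 marked 0, beside 1381 and 91 of all 15808 genes tested. The median fold was 1.44. Ctnna1, the alpha-catenin that tethers YAP at adherens junctions, ran from 512 to 592 CPM. E-cadherin (Cdh1) had 283, 358, 284 and 647 CPM, and the polarity gene Crb3 had the largest spread, with 4.96, 15.3, 7.98 and 22.1 CPM. In tumour 4, 7 of the 11 genes had their highest value, beside 28.5% of all genes tested.

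Another 18 commonly listed targets of YAP and TAZ, of which Lats2 and Ptpn14 stand in the lists above as well, did not follow 1 tumour. Of the 17 tested, 0 passed by edgeR, beside 3.63% of all genes tested. An unadjusted p under 0.05 was found for 3 and DESeq2 marked 0, beside 1381 and 91 of all 15808 genes tested. Their median fold was 1.98. They were highest in tumours 1 to 4 in 1, 4, 7 and 5 cases, beside 22.9, 18.9, 29.7 and 28.5% of all genes tested. The most abundant was Myof, a membrane repair protein, at 183, 259, 258 and 374 CPM. Those with an unadjusted p under 0.05 were F3, Fjx1 and Tgfb2. F3, the tissue factor that starts coagulation, had 50.6, 33.7, 147 and 122 CPM (edgeR adjusted p = 0.13). Fjx1 had 13.5 CPM in tumour 3 and 2.63 to 3.56 CPM elsewhere (edgeR adjusted p = 0.563). These 2 genes were highest in tumour 3, like Ccn1, Ccn2 and Ankrd1. Tgfb2, a ligand of the TGF-beta family, had its lowest value in tumour 3, at 21.1 CPM, and reached 85.1 CPM in tumour 4 (edgeR adjusted p = 0.508). Axl, a receptor tyrosine kinase often read as a YAP target, ran from 73.0 to 112 CPM and was highest in tumour 2. Foxf2, at 0.0487 to 3.18 CPM, was too scarce for the filter and passed without it (edgeR adjusted p = 0.0399).

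**Figure D5:**
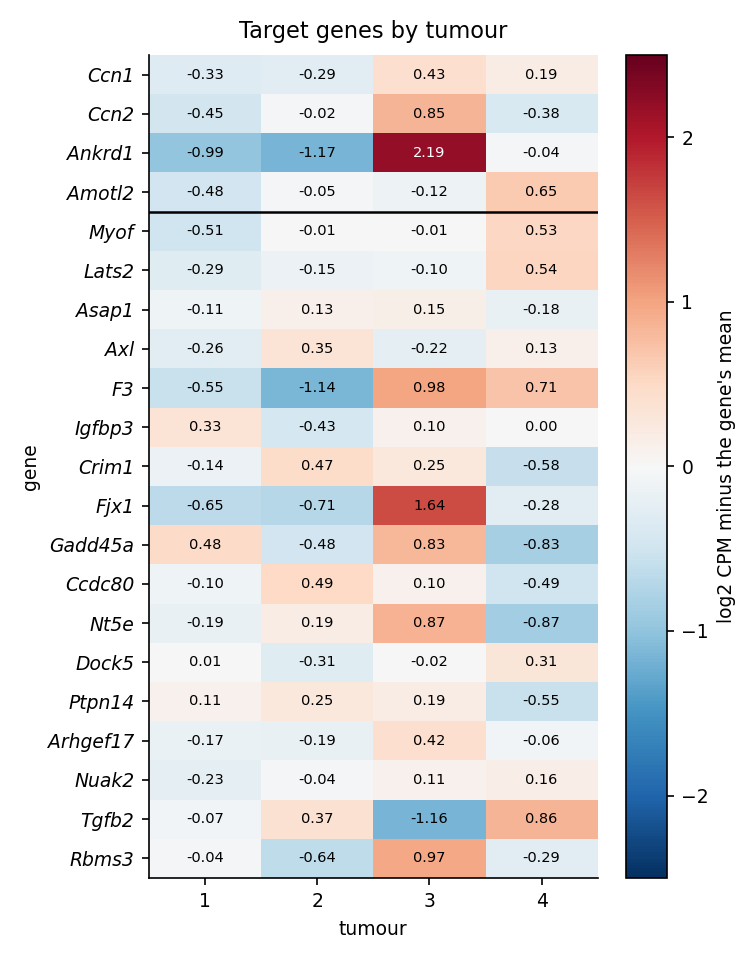
Centred log2 CPM (each value less the mean of the 4 tumours) for the 4 target members (above the line) and 17 other tested targets (below), in tumours 1 to 4. Tumour 3 is highest for 3 of the 4 members and 7 of the 17 others, with Ankrd1 the most extreme at 2.19.

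Other members of the CCN family were not highest in tumour 3, unlike Ccn1 and Ccn2. Ccn4 was even, at 15.9 to 20.7 CPM. Ccn3 and Ccn5 were lowest in tumour 1, as Ccn1 and Ccn2 were, but highest in tumour 4 (3.29 and 17.8 CPM for Ccn3, 3.98 and 16.7 CPM for Ccn5). Of these 3 genes, 0 passed by edgeR, beside 3.63% of all genes tested. None had an unadjusted p under 0.05 and DESeq2 marked 0, beside 1381 and 91 of all 15808 genes tested. Ccn6 was not analysed here.

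The genes whose profile over the tumours lay closest to the 2 members with the largest SD of log2 CPM, Ankrd1 (1.54) and Tead4 (0.62, next to 0.60 for Ccn2, which comes before Tead4 by fold and by CV), were then listed, by the distance between log2 CPM values centred on each gene's mean, over 4 tumours and 11073 candidate genes. Nearest to Ankrd1 were S100a9 (distance 0.38), Tut4 (0.43), Spats2l (0.47), Fut4 (0.56) and St6gal1 (0.62), each of them highest in tumour 3 and next highest in tumour 4. S100a9, a neutrophil calcium-binding protein, had 3.60, 2.63, 31.4 and 8.43 CPM. Nearest to Tead4 were Pim3 (0.16), Sting1 (0.20), Ddr1 (0.21), Cd1d1 (0.25) and Neo1 (0.26), each higher in tumours 2 and 3 than in 1 and 4. Ddr1, a collagen receptor, had 119, 182, 168 and 77.9 CPM. With 4 tumours and so many candidates, close profiles are to be found for most genes.

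Few read-length sequences of the members were shared with other genes, apart from those of Ccn2. Of the windows of 100 bases (the read length) in annotated transcripts of each member, 0 were found in transcripts of any other gene for 8 members, so that TEAD reads of that length are not shared within the family. Yap1 shared 0.18% of its windows with the antisense transcript Gm20416, and Ccn2 shared 12.1% with the antisense transcript Gm15270. The row for Gm15270 held 13 to 25 counts per tumour, against 4157 to 9250 for Ccn2. Exons of Ccn2 and Gm15270 overlap by 665 bases on opposite strands, those of Yap1 and Gm20416 by 116 and those of Tead2 and Cd37 by 13. The counter and strand setting were not given in the sources used here. How many reads in these overlaps went uncounted is therefore not known.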

How the data were processed

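Poly-A RNA of 4 tumours was fragmented, copied by random priming and sequenced as paired reads, per the labels' protocols. The authors deposited whole-number counts per Entrez gene, with no normalization; the submitters' processing notes name FastQC, GRCm38 and mm10, and aligner, counter, annotation and strand setting were not given in the sources used here. Of 28440 rows, 24480 had a symbol in RefSeq GRCm38.p6; 0 columns of sample values were left unused. Pairs of libraries differed beyond counting error (chi-square per degree of freedom 132 to 387).

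Counts were filtered (filterByExpr, 15808 genes left), scaled by TMM and fitted in edgeR 4.0.16 (R 4.3.3) with an intercept only at the trended dispersion. The deviance was set against chi-square with 3 degrees of freedom, with Benjamini-Hochberg adjustment over all genes (threshold 0.05). A gene that passes varies more than genes of like expression; 1 group allows no contrast. Log2 CPM used a prior count of 2. Lengths came from GENCODE M21. The test was checked on counts simulated at the trended dispersion of the fit, which is the setting the test assumes. It passed 7 of 15208 unchanged genes and found 68.1% of 47 genes raised 8-fold and 90% of 50 raised 16-fold. Genes whose dispersion scatters around the trend were not simulated, so the rate of false calls in the tumours was not tested. DESeq2 1.42.0 dispersion outliers, other scalings and filters, and leaving out each tumour were alternatives; union exon lengths were chosen after seeing the data.

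The members and the gene lists (14 lists, 116 genes, 103 tested) were chosen with earlier results of these data known. Genes named were all members, the most abundant and most variable tested gene of each list, any gene past the test, and the 5 nearest profiles to the 2 members with the largest SD of log2 CPM; others named were picked after their values were seen.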

Additional observations from a re-analysis of the deposited data

How the results depend on the processing

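Ankrd1 was the 1 member past the test, and it stayed so under RLE scaling, with library size alone and without tumour 4 (edgeR adjusted p from 0.00982 to 0.0397). With no count filter, with a minimum mean of 5 CPM and by DESeq2 dispersion outliers the number of members past the test was 0, and over the fits without 1 tumour it was 0 to 1. The other 9 members stayed short of the threshold in 72 of 72 refits. All genes past the test numbered 895 with no filter, 91 by DESeq2 and 367 to 417 without 1 tumour, against 574. Genes of the fixed lists past the test, 7 in the reported fit, numbered 13 with no filter, 11 with the minimum of 5 CPM and 4 to 7 without 1 tumour; leaving out tumour 3 ended the calls of Des, Mylpf and Fabp4, and leaving out tumour 4 those of Krt5, Trp63 and Oxtr.

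The mean log2 ratio of Wwtr1 to Yap1 was 0.23, and 1.35 with union exon lengths. With no length correction the mean TEAD share was 41.8% for Tead1 and 15.3% for Tead3 (18.9 and 24.0% as reported), and with union exon lengths 14.8% for Tead3. Mean log2 CPM of the members moved by less than 1 SD in 70 of 70 refits. This outcome was fixed in advance and is no check of the levels. Leaving out a tumour cannot move a mean over so few tumours by 1 SD, and other scalings leave the mean log2 CPM almost unchanged by construction. The causes of these changes were not tested beyond the construction of each setting. No paired analysis was possible because the tumours form 1 group.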
